A study of Mus musculus with 4 samples.

Results

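The Eph receptors and their ephrin ligands, the semaphorins, and the plexins and neuropilins that receive semaphorin signals were examined in 4 mouse melanoma cell lines by whole genome microarray. The genes were chosen by symbol alone: Epha, Ephb, Efna or Efnb with a number, Sema with a number and letter, Plxna, Plxnb, Plxnc or Plxnd with a number, and Nrp, Nrp1 or Nrp2. This rule took 57 of the 33012 probes on the array, for 47 of the 15694 gene symbols. They comprised 8 EphA and 5 EphB receptor genes, 4 ephrin-A and 3 ephrin-B ligand genes, 18 semaphorins, 7 plexins and 2 neuropilins, and 8 of the 47 genes had more than 1 probe. Neuropilin-1 is listed on the array under its older symbol, Nrp.

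All 4 lines share one origin. B16 is the parental mouse melanoma line, called B16F1 in the growth protocol. B16-RI was grown out from lymph node metastases that formed in C57BL6 mice after intradermal injection of the parental cells, in 1 round. The cells of B16-RI were injected again for round 2, from which B16-RII was taken out of lymph node metastases and B16-RIIL out of lung metastases. All were cultured in DMEM with 20% serum, and the RNA of 2 passage numbers was pooled for each line. Each line is represented here by 1 array, so no difference below has a replicate check and none was tested. Each line is also 1 isolate, so the organ, the round and the isolate cannot be told apart.

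These families were first known from the wiring of the nervous system, where they steer growing axons. Eph receptors are receptor tyrosine kinases that bind ephrins on a neighbouring cell, with signals passing into both cells. Class A ephrins are held in the membrane by a lipid anchor and class B ephrins span it. Semaphorins are secreted or membrane-bound ligands of the plexins, whose cytoplasmic part acts on small GTPases and, through them, on the cytoskeleton and adhesion. Neuropilins are co-receptors for class 3 semaphorins and also for vascular endothelial growth factors. Melanocytes come from the neural crest, a migratory embryonic tissue that uses many of these cues.

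The plexin A3 gene (Plxna3, chromosome X) carried the widest difference among these genes, so its promoter is shown first. The sequence is that of RefSeq in the GRCm38.p6 build, chrX:74328816-74329115 on the plus strand, from 250 bases before to 50 bases after the annotated start. Capitals mark GGGCGG and its reverse complement CCGCCC, the core of a GC box, a motif bound by Sp-family factors.
Plxna3: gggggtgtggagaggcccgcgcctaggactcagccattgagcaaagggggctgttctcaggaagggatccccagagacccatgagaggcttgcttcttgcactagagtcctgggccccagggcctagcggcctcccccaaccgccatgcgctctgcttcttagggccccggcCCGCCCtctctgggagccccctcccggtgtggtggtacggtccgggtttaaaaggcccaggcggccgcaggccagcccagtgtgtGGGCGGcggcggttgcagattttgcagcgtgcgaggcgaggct
The window held 2 such matches and 18 CG dinucleotides, more than 70.3% of all promoters of this length (median 7). GGGCGG on either strand was found in 35.7% of the 32851 promoters of the RefSeq table. CATGTG and CACGTG, the E-box forms read by the melanocyte factor Mitf, were searched on both strands (CACGTG is its own reverse complement) and are not in this window. Genes were counted where any of their promoters held the motif, which differs from the share per promoter above. Over the 41 member genes with a promoter in the table, GGGCGG was present in 31 (75.6%, against 56.6% of the 11623 array genes with a promoter), CATGTG in 5 (12.2% against 12.1%) and CACGTG in 4 (9.76% against 10.2%).

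A minority of these genes was detected in all 4 melanoma lines. A probe was taken as detected where its signal-to-noise ratio (S/N) on that array was at least 3 and its quality flag at most 5000. On these terms 35 probes for 29 genes were detected on at least 1 array, 15 probes for 13 genes on all 4, and 22 probes were detected on none, the highest S/N among those being 2.93. The 15 probes are 26.3% of the members, against 35.2% of all probes on the array. Signals are given below in arbitrary units after a scaling that gives each array the centre of the B16 array. They may be compared between arrays for 1 probe but not between probes. In RNA from a whole culture, fewer cells with a transcript and less transcript per cell cannot be told apart.

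The first lymph node line had the fewest of these probes detected. There were 28 on B16 (49.1% of the 57), 18 on B16-RI (31.6%), 24 on B16-RII (42.1%) and 25 on B16-RIIL (43.9%). Over all probes the shares were close to each other, at 43.5%, 42.0%, 44.7% and 45.0%. Of the 28 member probes detected on B16, 11 were not detected on B16-RI (39.3%, against 15.4% of all probes detected on B16), 7 not on B16-RII (25.0% against 11.8%) and 8 not on B16-RIIL (28.6% against 12.6%). In the other direction, 1, 3 and 5 members were detected on these lines and not on B16. Over all probes 1704, 2082 and 2294 were gained in this way, beside 2207, 1701 and 1814 lost. The members also had a lower S/N. Those detected on B16 had a median S/N there of 7.55, against 18.4 over all detected probes, and the 11 lost on B16-RI had a median of 3.89. With an S/N limit of 5 the 4 lines had 18, 16, 19 and 18 member probes detected, so that B16 was no longer the line with the most. The part of the low signal in the losses was not tested. The scaled signals of all 35 probes on the 4 arrays are plotted by role.

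**Figure D1:**
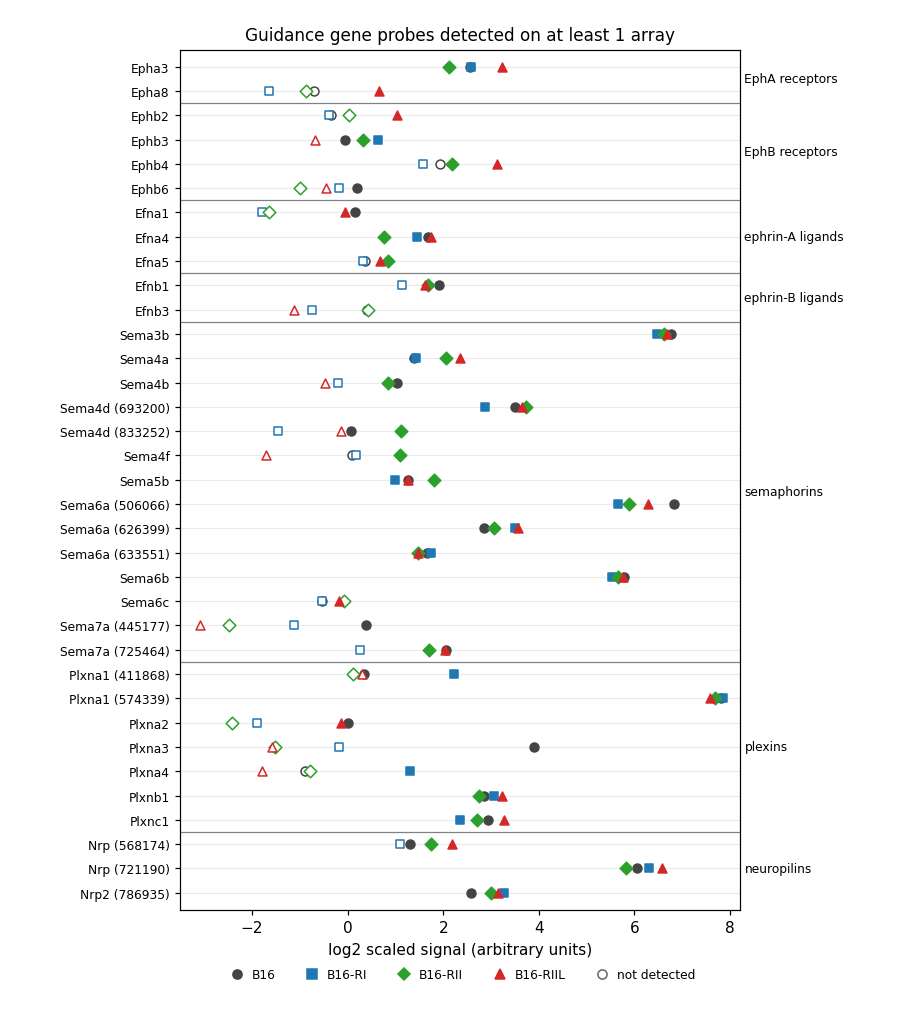
Scaled signal (log2, arbitrary units) of the 35 guidance gene probes detected on at least 1 array, 1 point per array, grouped by role. Filled symbols were detected and open symbols were not, and probe numbers are given for genes with several probes. Sema3b, Sema6b and a probe each of Sema6a, Plxna1 and Nrp lie at the right on every array, while the Plxna3 point of B16 stands far to the right of its 3 open symbols.

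A probe was called different between 2 arrays where the scaled signals differed at least 2-fold (1 on the log2 scale) and the brighter array detected it. Where the dimmer array did not detect it, its signal was raised to the lowest detected signal of that array if it lay under it. The fold of such a pair is written as "at least" and called a bound. The wording marks an undetected dimmer side and is not a firm lower limit. An undetected signal above that floor was used as it was, and a higher floor, given below, made many of these folds smaller. Against B16, 2 member probes were higher and 9 lower on B16-RI, 2 higher and 5 lower on B16-RII, and 3 higher and 4 lower on B16-RIIL. The same rule called 3.86% of all probes higher and 5.48% lower on B16-RI, 3.27% and 5.65% on B16-RII, and 4.09% and 5.24% on B16-RIIL. The members' shares were 3.51% and 15.8%, 3.51% and 8.77%, and 5.26% and 7.02%, the widest gap to all probes being that of the lower calls on B16-RI. Between rounds, B16-RII had 3 members higher and 2 lower than B16-RI (5.26% and 3.51%, beside 3.36% and 4.02% of all probes). Between organs, B16-RIIL had 5 higher and 4 lower than B16-RII (8.77% and 7.02%, beside 4.46% and 3.32% of all probes).

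**Figure D2:**
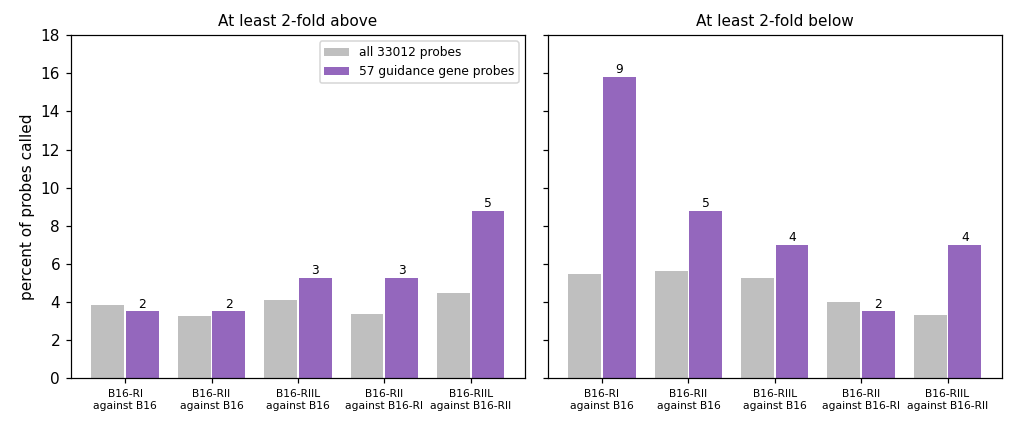
Percent of probes called at least 2-fold higher or lower in each of the 5 comparisons, for the 57 guidance gene probes and for all 33012 probes. The member bar for lower signal on B16-RI (15.8%) is the one farthest from its background (5.48%).

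Nearly all of these calls rest on a transcript that one array detected and the other did not. Of the 39 member calls over the 5 comparisons, 4 had both arrays detected: Plxna1 and Sema6a on B16-RI against B16, Sema4d on B16-RII against B16, and Epha3 on B16-RIIL against B16-RII. Among the members detected on both B16-RI and B16, 1 of 17 was higher (1.45% of all such probes) and 1 of 17 lower (2.72%). The same counts were 1 higher and 0 lower of 21 on B16-RII (1.54% and 3.81% of all such probes) and 0 of 20 on B16-RIIL (1.95% and 3.34%). They were 0 of 16 between B16-RII and B16-RI (0.887% and 2.02%), and 1 higher and 0 lower of 20 between B16-RIIL and B16-RII (1.86% and 1.14%). With the floor for undetected signals raised to the 5th percentile of detected ones, 1 member (Plxna1) was higher and 3 (Plxna3, Sema6a and Sema7a) were lower on B16-RI than on B16, 1.75% and 5.26% beside 1.54% and 1.98% of all probes. Over the 5 comparisons, 14 of the 39 member calls were kept with this raised floor, those of Plxna3, Plxna1, Sema6a, Epha3 and Ephb4 and part of those of Plxna4, Sema4d, Sema4f and Sema7a, and 25 were lost. The comparisons with B16 share that array. In all, 18 probes (17 genes) were called in at least 1 comparison, 31.6% of the members beside 21.1% of all probes. Of these 2 were lower than B16 in all 3 derived lines (Plxna3 and a probe of Sema7a, 3.51% of the members beside 2.47% of all probes), and 0 were higher in all 3 (0.618% of all probes).

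For the transcripts that every array detected, differences were mostly under 2-fold, though wider than over all such probes. For these 15 probes the highest of the 4 signals was between 1.18 and 2.26 times the lowest, with a median of 1.68 (1.41 over the 11604 probes of all genes detected on every array), and 13 of the 15 stayed under 2-fold, against 88.4% of the 11604. The median log2 difference of the 15 from B16 was 0.024 on B16-RI, -0.131 on B16-RII and 0.15 on B16-RIIL, beside 0.027, -0.012 and -0.037 over all 11604. Pairs of probes for a gene give a scale for such differences in the absence of replicates. Over 487 genes with 2 probes detected on every array, the log2 changes of both probes from B16 differed by a median of 0.22 on B16-RI, 0.28 on B16-RII and 0.30 on B16-RIIL, and the 90th percentiles were 0.72, 0.79 and 0.83.

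**Figure D3:**
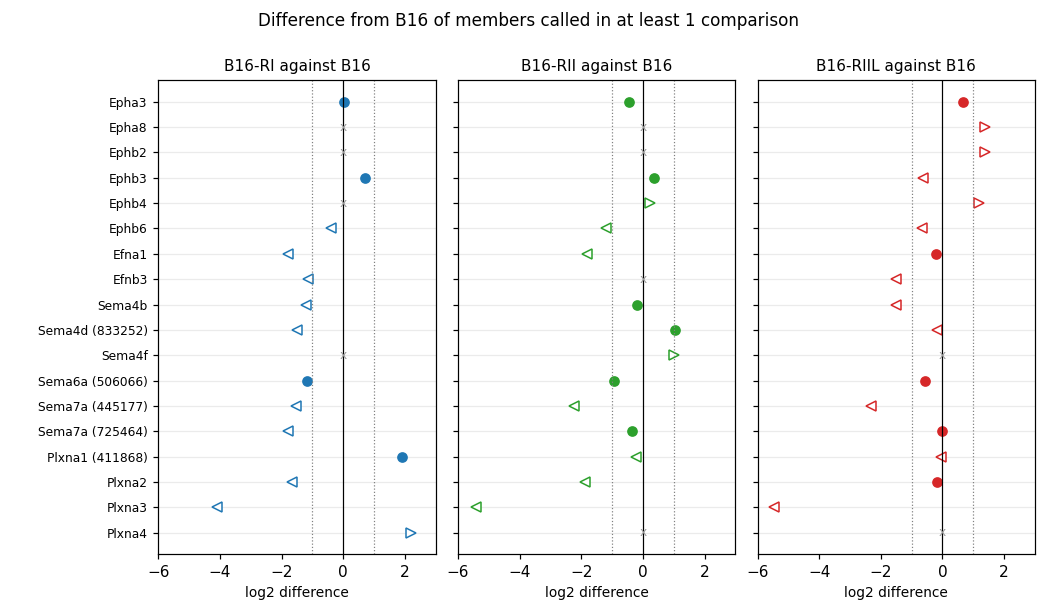
Log2 difference of the scaled signal from B16 on B16-RI, B16-RII and B16-RIIL for the 18 guidance gene probes called in at least 1 of the 5 comparisons. Filled points had both arrays detected. Open triangles are bounds, where the dimmer array did not detect the probe. Its signal was raised only if it lay under the lowest detected signal of that array. An x marks a pair with no value because its brighter array did not detect the probe, and dotted lines mark a difference of 1. The Plxna3 bounds lie lowest, at -4.09, -5.42 and -5.48 against B16.

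Among the Eph receptors, 2 of 8 class A genes and 4 of 5 class B genes were detected on at least 1 array. Of 8 EphA genes, Epha1, Epha2, Epha4, Epha5, Epha6 and Epha7 were detected on no array. Epha3, a receptor of ephrin-A ligands that is found in a share of melanomas, was detected on all 4. The B16 array gave a scaled signal of 5.89, beside 5.99 for B16-RI, 4.35 for B16-RII and 9.3 for B16-RIIL. The lung line was thus the highest, 2.14-fold above the lymph node line of the same round (log2 1.10, from 1.09 to 1.19 over the 5 scalings), and 0.66 above B16 on the log2 scale (0.99 to 1.23 under the other scalings, 2 of which called it). Epha8 was detected on B16-RIIL alone, at a signal of 1.58 and an S/N of 3.2, just over the limit, beside undetected signals of 0.61, 0.319 and 0.543 for B16, B16-RI and B16-RII, and the bounds were at least 2.6-fold over B16 and at least 2.92-fold over B16-RII.

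EphB receptors bind mainly the class B ephrins. Ephb4, which pairs with ephrin-B2 in the separation of arteries from veins, had scaled signals of 3.85 on B16 and 2.98 on B16-RI, both not detected (S/N 2.41 and 2.95), then 4.54 on B16-RII and 8.69 on B16-RIIL, both detected (S/N 7.69 and 13.78). The lines of round 2 were therefore the ones to detect it, with B16-RIIL at least 2.26-fold over B16 (log2 0.95, and no call, with 75th percentile scaling) and 0.94 on the log2 scale over B16-RII. Its preferred ligand Efnb2 was detected on no array. Ephb2, a receptor that also binds ephrin-A5, was detected on B16-RIIL alone, at 2.04, beside undetected signals of 0.79, 0.757 and 1.01 on B16, B16-RI and B16-RII. That is at least 2.58-fold over B16, and at least 2.01-fold over B16-RII, a difference that lay between 0.59 and 0.88 on the log2 scale under each of the other 4 scalings.

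None of the remaining EphB genes was detected on all 4 arrays. Ephb3 was detected on B16 (0.96), B16-RI (1.55) and B16-RII (1.24) and not on B16-RIIL (0.621), which was at least 2.0-fold under B16-RII, a call lost in 3 of the 4 other scalings (log2 -0.91 to -0.95). On B16-RI it was 0.69 above B16 on the log2 scale, and was called there under 3 of the 4 other scalings (1.02 to 1.09). Ephb6, whose kinase domain is inactive, was detected on B16 alone, at 1.15, beside 0.877, 0.499 and 0.726 on B16-RI, B16-RII and B16-RIIL, at least 2.3-fold lower on B16-RII. This call was lost in 3 of the 4 other scalings (log2 -0.78 to -0.98). Ephb1 was detected on no array.

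Of the ephrins, 5 of 7 genes were detected on at least 1 array. Efna1, a ligand of the EphA receptors, had signals of 1.12 on B16 and 0.962 on B16-RIIL, both detected, and of 0.288 on B16-RI and 0.32 on B16-RII, both not detected. The 2 lymph node lines were thus the low ones, at least 3.51-fold (B16-RI) and at least 3.5-fold (B16-RII) under B16, and the lung line was at least 3.01-fold over B16-RII. The S/N on B16 was 3.18, just over the limit, and with the raised floor none of these differences was called (log2 0 to -0.13). Efna4 was detected on all 4 arrays and was lowest on B16-RII, with 3.21 on B16, 2.71 on B16-RI, 1.68 on B16-RII and 3.36 on B16-RIIL. Its difference between B16-RIIL and B16-RII was 1.00 on the log2 scale, just under the limit, and from 0.58 to 0.87 under the other scalings, while 75th percentile scaling called it lower on B16-RII than on B16 (-1.03). Efna5 was detected on both lines of round 2 only, at 1.78 and 1.6, with undetected signals of 1.29 on B16 and 1.26 on B16-RI so close to them that nothing was called, except B16-RII over B16 with median scaling (log2 1.04).

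In class B, Efnb1 was detected on B16 (3.72), B16-RII (3.22) and B16-RIIL (3.08) and not on B16-RI (2.2), with no call. Efnb3 was detected on B16 alone, at 1.32, and its undetected signals were 0.6 on B16-RI, 1.35 on B16-RII and 0.46 on B16-RIIL. B16-RI was at least 2.2-fold and B16-RIIL at least 2.87-fold lower than B16, while B16-RII had a signal no lower than that of B16. Under the other 4 scalings the B16-RI call was lost (log2 -0.74 to -0.89), and under 2 of them the B16-RIIL call (-0.91 and -0.94). Efna2 was detected on no array. None of the ephrins was higher than B16 by the rule on any derived line.

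Semaphorins made up the largest group, with 10 of 18 genes detected on at least 1 array. Class 3, the secreted semaphorins, was represented by Sema3b alone, a ligand that acts through neuropilins and is known as a tumour suppressor. It was bright and even, with scaled signals of 109, 88.9, 97.9 and 102 on B16, B16-RI, B16-RII and B16-RIIL at an S/N of 91 to 100. Sema3a, Sema3c, Sema3d, Sema3e and Sema3f were detected on no array. Among class 6, Sema6b, a membrane ligand of class A plexins, read 54.9, 46.4, 50.1 and 54.7, again with the 4 lines side by side.

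Sema6a, a second membrane ligand of the class A plexins, was measured by 3 probes that did not move together. Probe 506066 had signals of 114 for B16, 50.4 for B16-RI, 59.4 for B16-RII and 77.6 for B16-RIIL, so that B16-RI was 2.26-fold under B16, while B16-RIIL ranged from -0.56 to 0.01 against B16 on the log2 scale over the 5 scalings. Probe 626399 ran the other way, with 7.2 on B16, 11.2 on B16-RI, 8.33 on B16-RII and 11.9 on B16-RIIL. Probe 633551 was nearly level, at 3.13, 3.36, 2.79 and 2.79. All were detected on every array. The log2 changes of the first and second probe differed by 1.82 on B16-RI, more than in 99.6% of the 487 genes with 2 probes, by 1.15 on B16-RII (95.9%) and by 1.28 on B16-RIIL (98.4%). No direction can be given for the gene, and the call of probe 506066 was lost in 3 of the 4 other scalings (log2 -0.78 to -0.93).

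**Figure D4:**
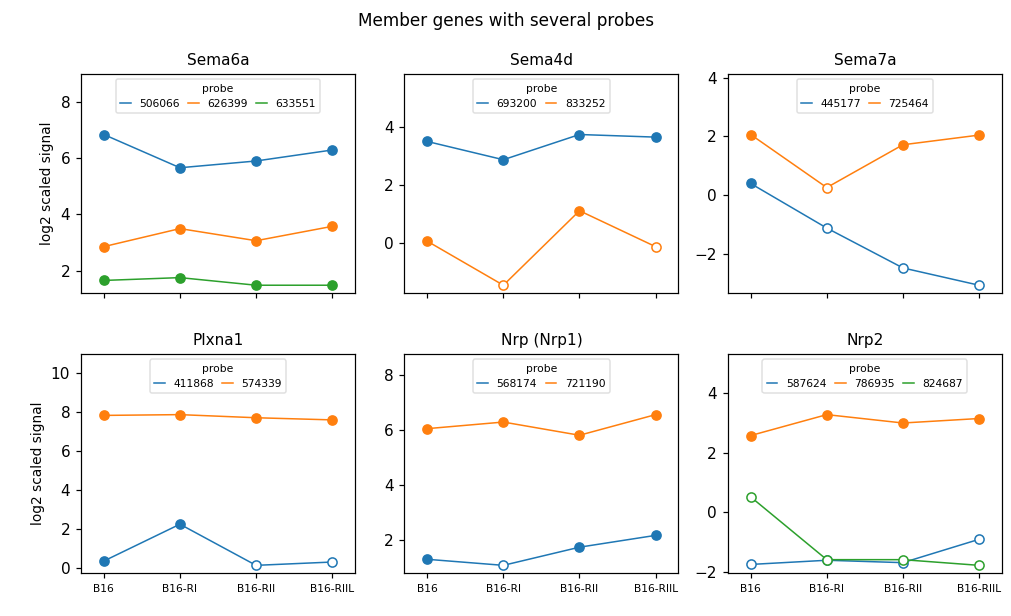
Scaled signal (log2, arbitrary units) on each array for 6 guidance genes with several probes, 1 panel per gene and 1 line per probe, with filled points detected and open points not detected. From B16 to B16-RI the Sema6a probe 506066 falls by 1.18 while probe 626399 rises by 0.64, and both Sema4d probes dip on B16-RI.

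Class 4 and class 7 semaphorins also act between immune cells. Of the 23 semaphorin probes of all classes, 6 were called in at least 1 comparison, beside 21.1% of all probes on the array. Sema4a passed the limit in no comparison, with 2.6 on B16, 2.67 on B16-RI, 4.15 on B16-RII and 5.13 on B16-RIIL, and the order of the 4 was the same under all 5 scalings. B16-RI and B16 did not differ beyond the spread between probes of a gene. Its difference between B16-RII and B16 was 0.67 on the log2 scale, called in 3 of the 4 other scalings (1.02 to 1.26). Its difference between B16-RIIL and B16 was 0.98 on the log2 scale, just short of a call, and 1.32 to 1.55 under the other scalings. Sema4b was detected on B16 (2.04) and B16-RII (1.79) and not on B16-RI (0.873) and B16-RIIL (0.718). It was at least 2.34-fold lower on B16-RI and at least 2.84-fold lower on B16-RIIL than on B16, at least 2.05-fold higher on B16-RII than on B16-RI, and at least 2.5-fold lower on B16-RIIL than on B16-RII. Both calls against B16 were lost under all 4 other scalings on B16-RI (log2 -0.83 to -0.98) and under 3 of them on B16-RIIL (-0.94 to -0.99).

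Sema4d, a ligand of plexin-B1 that signals in angiogenesis and in lymphocytes, had 2 probes. Probe 693200 was detected on all arrays, at 11.3 on B16, 7.33 on B16-RI, 13.4 on B16-RII and 12.6 on B16-RIIL, with B16-RI the lowest and no difference past the limit except B16-RII over B16-RI with median scaling (log2 1.11). Probe 833252 was dimmer and moved further, with 1.04 on B16 and 2.16 on B16-RII, both detected, and 0.364 on B16-RI and 0.914 on B16-RIIL, both not. By this probe B16-RI was at least 2.85-fold under B16 and B16-RII 2.07-fold over it, and B16-RII was at least 5.92-fold over B16-RI and at least 2.36-fold over B16-RIIL. With the raised floor the differences of B16-RI from B16 and from B16-RII were no longer called (log2 0 and 0.59), and the other pair of calls was kept. Both probes had B16-RI as the lowest of the 4 lines. B16-RII was the highest by probe 833252, but by probe 693200 it was about level with B16-RIIL. By that probe the log2 difference of B16-RIIL from B16-RII was -0.09. It was 0.0 on the deposited values and with quantile normalization and 75th percentile scaling.

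Sema4f was detected on B16-RII alone, at 2.15, beside undetected signals of 1.06, 1.12 and 0.307 on B16, B16-RI and B16-RIIL. It was at least 2.03-fold over B16 there, and on B16-RIIL at least 7.0-fold lower than on B16-RII (log2 -2.81, and -1.0 with the raised floor). Sema5b was detected on all 4 arrays, at 2.41, 1.98, 3.48 and 2.41, and Sema6c on B16-RIIL alone, at 0.875, neither of them called, although Sema5b was higher on B16-RII than on B16 and B16-RI with median scaling (log2 1.11 and 1.06). Sema4g, Sema5a and Sema6d were detected on no array.

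Sema7a, a lipid-anchored semaphorin that binds plexin-C1 and integrins, was the one semaphorin with a probe called lower on every derived line. Its probe 725464 read 4.16 on B16, 3.26 on B16-RII and 4.11 on B16-RIIL, all detected, and 1.19 on B16-RI, not detected, at least 3.49-fold lower there than on B16. The second probe, 445177, was detected on B16 alone, at 1.31, beside 0.455, 0.178 and 0.119, with bounds of at least 2.88-fold, 4.76-fold and 4.94-fold. Its spot on the B16-RIIL array also carried a quality flag of 131073, over the limit. Both probes were therefore low on B16-RI, but on B16-RII and B16-RIIL the brighter one stood near its B16 level. The calls of the dimmer probe were lost with a higher floor for undetected signals (log2 0 to -0.35), while that of the brighter probe on B16-RI was kept (-1.54).

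The widest differences of all the members were those of a plexin. Plxna3, a receptor of class 3 semaphorins together with neuropilins, had 1 probe, with a scaled signal of 15 for B16, 0.881 for B16-RI, 0.35 for B16-RII and 0.335 for B16-RIIL. It was detected on B16 (S/N 10.92) and not on the other arrays (S/N 1.87, 0.1 and -1.19). The raw signals were 5564, 428, 278 and 234. It was at least 17.0-fold lower on B16-RI, at least 42.8-fold lower on B16-RII and at least 44.7-fold lower on B16-RIIL than on B16. These bounds were -4.09, -5.42 and -5.48 on the log2 scale, taken from undetected signals that did not need raising. The call stood on all 3 lines under every alternative except the one that needs detection on both arrays, with the smallest sizes, -3.38, -3.87 and -3.8, where the floor was raised.

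The other class A plexins went in several directions. Plxna1, which joins neuropilin-1 in receiving class 3 semaphorins, had signals of 224, 231, 207 and 192 on B16, B16-RI, B16-RII and B16-RIIL by probe 574339, level over the lines. Its probe 411868 read 1.27 on B16 and 4.7 on B16-RI, both detected (S/N 4.74 and 7.05), and 1.09 on B16-RII and 1.22 on B16-RIIL, both not, so that B16-RI was 3.7-fold over B16 and B16-RII at least 4.33-fold under B16-RI. The 2 probes disagree on B16-RI, and a rise of the gene there rests on the second of them. Plxna2 was detected on B16 (1.01) and B16-RIIL (0.905) and not on B16-RI (0.269) and B16-RII (0.186), at least 3.17-fold and 3.67-fold lower than B16 on these lymph node lines and at least 3.29-fold higher on B16-RIIL than on B16-RII. With the raised floor all 3 of these differences were 0 and the calls were lost, as for Efna1, which was detected on the same 2 lines.

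Plxna4, which serves class 3 and class 6 semaphorins, was detected on B16-RI alone, at 2.46, beside 0.54 on B16, 0.581 on B16-RII and 0.288 on B16-RIIL. B16-RI was at least 4.56-fold over B16, and B16-RII was at least 4.24-fold under B16-RI. With the raised floor the first of these was lost (log2 0.9) and the second kept (-1.26). The plexin receptors of Sema4d and Sema7a had no call in any comparison. Plxnb1, the receptor of Sema4d, read 7.28, 8.35, 6.68 and 9.35, and Plxnc1, the receptor of Sema7a, read 7.62, 5.14, 6.49 and 9.56 on B16, B16-RI, B16-RII and B16-RIIL, detected on every array with B16-RIIL highest for both. Plxnb3 was detected on no array.

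Neuropilins had no call in any of the 5 comparisons. Neuropilin-1 (Nrp) was bright by probe 721190, with 66.5, 78.7, 56.7 and 95.2 on B16, B16-RI, B16-RII and B16-RIIL. Its dimmer probe 568174 read 2.48, 2.12 (not detected), 3.37 and 4.53, and both probes were highest on B16-RIIL. Nrp2, a co-receptor with a role in lymphatic vessels, was detected on all arrays by probe 786935, at 5.93, 9.63, 7.96 and 8.84, with B16 the lowest. On the deposited values and with median scaling this probe passed the limit on B16-RI (log2 1.10 and 1.03) and on B16-RIIL (1.1 and 1.14), and with median scaling also on B16-RII (1.0). On the deposited values the Nrp probe 568174 passed it on B16-RII over B16-RI (1.09). The other 2 probes of Nrp2 were detected on no array.

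The signalling partners of these receptors were read from 2 lists, with 1 probe, the brightest, for each gene. Of 21 listed partners of Eph receptors and ephrins, 19 were on the array and 15 were detected on at least 1. Against B16, 1 was higher and 2 lower on B16-RI (3.63% and 5.1% of all genes by their brightest probe), 1 higher and 2 lower on B16-RII (3.51% and 5.04%), and 0 higher and 1 lower on B16-RIIL (4.22% and 4.56%). Tiam1, an exchange factor that activates Rac downstream of both Eph receptors and ephrin-B ligands, had 2.07 on B16, detected at an S/N of 3.51, and 0.399, 0.536 and 0.378 on B16-RI, B16-RII and B16-RIIL, all undetected. It was at least 5.19-fold, 3.86-fold and 5.48-fold lower there and was called under all 5 scalings, but with the raised floor only on B16-RII (log2 -0.53, -1.01 and -0.95). Pick1, a PDZ protein that clusters Eph receptors and ephrins (Prkcabp on the array), read 4.26 on B16, 1.12 on B16-RI (not detected), 1.8 on B16-RII and 2.59 on B16-RIIL, at least 3.79-fold lower on B16-RI and 2.37-fold lower on B16-RII, the latter not called in 3 of the 4 other scalings (log2 -0.67 to -0.88). The kinase Abl1 was detected on B16-RI alone, at 3.78, at least 3.85-fold over B16 and at least 3.96-fold over B16-RII. Arhgef15 (D130071N09 on the array), an exchange factor for RhoA bound by Eph receptors, was detected on B16-RII alone, at 3.51, at least 2.68-fold over B16 and at least 6.14-fold over B16-RIIL. Between the derived lines, 1 was lower on B16-RII than on B16-RI and 0 higher (3.34% and 3.15% of all genes), and 1 was lower on B16-RIIL than on B16-RII and 0 higher (2.99% and 4.01%). The median log2 difference from B16 of the 10 partners detected on every array was 0.04, -0.04 and -0.45. Over all probes detected on every array it was 0.027, -0.012 and -0.037. The partner medians were not taken under the other scalings.

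Of 26 listed partners of semaphorins and plexins, 23 were on the array, 17 were detected on at least 1 and 15 on all 4. Against B16, 1 was higher and 1 lower on B16-RI (3.63% and 5.1% of all genes), 1 and 1 on B16-RII (3.51% and 5.04%), and 3 and 1 on B16-RIIL (4.22% and 4.56%). Between the derived lines, 1 was higher and 1 lower on B16-RII than on B16-RI (3.15% and 3.34%), and 1 higher and 0 lower on B16-RIIL than on B16-RII (4.01% and 2.99%). Dpysl3, a collapsin response mediator protein that relays semaphorin signals to microtubules, had 28.5 on B16, 11.3 on B16-RI, 8.46 on B16-RII and 11.5 on B16-RIIL, detected on every array. It was 2.52-fold, 3.37-fold and 2.48-fold lower than on B16, called under all 5 scalings. Cd72, a receptor of Sema4d known from B cells, moved the other way, with 1.59 on B16, not detected, and 6.76, 7.79 and 9.35 on B16-RI, B16-RII and B16-RIIL, all detected. The bounds were 4.25-fold, 4.9-fold and 5.88-fold over B16, called under all 5 scalings.

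Met, the receptor of hepatocyte growth factor, which couples to plexin-B1, read 3.42 on B16, 2.57 on B16-RI, 6.63 on B16-RII and 8.27 on B16-RIIL, 2.42-fold over B16 on the lung line and 2.59-fold over B16-RI on B16-RII. Rhod, a small GTPase that binds class A plexins, read 24.0, 45.6, 45.8 and 57.5, 2.39-fold over B16 on B16-RIIL. Rnd3 (Rhoe on the array), a GTPase of the Rnd family, members of which bind plexins, read 3.57, 6.23, 2.7 and 4.31, 2.31-fold lower on B16-RII than on B16-RI, a call lost with median scaling (log2 -0.96). Mical2 (5330438E18Rik on the array), of a family of oxidoreductases that act on actin, was detected on B16-RIIL alone, at 0.948 and an S/N of 3.23, at least 2.6-fold over B16-RII, a call lost with the raised floor. In all, that floor kept 7 of the 9 calls of the Eph and ephrin partners and 10 of the 11 of the semaphorin and plexin partners. Of the partners of semaphorins and plexins, 1 was thus lower (Dpysl3) and 1 higher (Cd72) on all 3 derived lines. The median log2 difference from B16 of the 15 partners detected on every array was -0.11, 0.12 and 0.27, beside 0.027, -0.012 and -0.037 over all such probes. It too was taken under 1 scaling only.

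The lines kept the markers of melanocytes, and markers of other cell types were detected in part. All 6 melanocyte markers on the array were detected on all 4 arrays, with none called and a summed scaled signal from 5560 to 6400. Each sum takes 1 probe per listed gene, detected or not, and is compared only between arrays. Of 8 endothelial markers, 1 was detected on any array (Pecam1, on B16-RII and B16-RIIL), Cdh5, Kdr, Tek, Lyve1 and Prox1 were detected on none, and the sums ran from 4.1 to 5.44. Pecam1 itself, with signals of 0.52 for B16, 1.02 for B16-RI, 1.81 for B16-RII and 0.711 for B16-RIIL, was at least 3.49-fold higher on B16-RII than on B16 and 2.55-fold lower on B16-RIIL than on B16-RII. Of 7 leucocyte markers, Ptprc, Cd68, Emr1 and Itgam were detected on none, Cd79a, a B cell gene, was detected on every array (56.0 on B16), and the sums ran from 60.3 to 69.6. Csf1r was lower than on B16 on B16-RI and B16-RII, and Cd3g higher on B16-RIIL than on B16-RII. Of 6 fibroblast markers, 4 were detected on at least 1 array and Dcn and Pdgfra on none, with sums of 13.6, 17.3, 9.66 and 17.7 on B16, B16-RI, B16-RII and B16-RIIL that followed Col1a2 (6.32, 11.4, 5.5 and 11.6). Col1a2 and Lum were higher on B16-RIIL than on B16-RII (log2 1.08 and 1.43), Col1a2 and Pdgfrb were lower on B16-RII than on B16-RI (-1.05 and -1.27), and Col1a1 was lower than on B16 in all 3 derived lines (-1.76, -1.08 and -1.06). Of 4 lung epithelium markers on the array, 3 were detected on at least 1 and Sftpc on none, with sums of 4.7, 2.67, 1.97 and 3.88. No lung epithelium marker was detected on B16-RI or B16-RII, so the sums there hold undetected signals only. Epcam (Tacstd1 on the array) and Scgb1a1 were higher on B16-RIIL than on B16-RII (at least 5.32-fold and 2.11-fold), Epcam was lower than on B16 on B16-RI and B16-RII, and Sftpb was lower than on B16 in all 3 derived lines. With the raised floor no call of the leucocyte and lung epithelium markers was kept, against 6 of the 7 of the fibroblast markers. The Pecam1 call on B16-RII against B16 was lost (log2 0.46), and that on B16-RIIL against B16-RII was kept (-1.35). Before raising the floor, from 2.99% to 5.1% of all genes by their brightest probe were called in a comparison and direction. Of 4 neuron markers on the array, Tubb3 was detected on every array (191, 193, 197 and 242) and the others on none, with sums from 192 to 243 and no call. The part of other cells in the guidance gene differences was not tested.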

How the data were processed

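RNA of each line was hybridised by the authors to single-colour mouse genome arrays of Applied Biosystems, read by chemiluminescence. The deposited table holds, for each array, the raw signal and the normalized signal, both linear intensities, and 2 quality scores given by the authors, the S/N and the flag. The methods name quantile normalization, but the deposited normalized signal equals the raw signal divided by 1 of 2 constants per array, each for a fixed set of probes (16524 and 16488). This leaves the sets offset from each other between arrays. Over the probes detected on every array, the deposited log2 differences from B16 had medians of 0.209 on B16-RI, 0.415 on B16-RII and 0.224 on B16-RIIL.

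For the scaled signal, log2 normalized signals of each set were therefore shifted so that the median over the probes detected on all 4 arrays equalled that on B16. With 1 array per line no test was run. Counts of members are set beside the same counts over all probes, and precision is limited by how few arrays there are. The raw medians were 434.51, 450.675, 618.72 and 554.3 on B16, B16-RI, B16-RII and B16-RIIL, and the lowest detected scaled signals were 0.31, 0.319, 0.275 and 0.265. Alternatives were 4 other scalings, stricter or no detection limits, no floor, 1 probe per gene and, chosen after seeing the data, a floor at the 5th percentile of detected signals.

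The table has 30 columns of second arrays that match no sample label (20 of single arrays, 10 of ratios), and these were not used, nor were the authors' log ratios of the arrays used here. The authors' text speaks of duplicates, of which 1 array per line was analysed here. Every member detected on at least 1 array is named, called probes with all their signals, and partner genes where their brightest probe was called. The members, lists and rules were chosen with earlier results of these data known. Symbols and promoters were matched to RefSeq tables of GRCm38.p6 (all 47 genes and 41 promoters). The calling code was tested on simulated data. Python 3.11.15, numpy 2.4.6, pandas 2.3.3 and matplotlib 3.10.9 were used.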

Additional observations from a re-analysis of the deposited data

Results flagged for a closer look

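Sema4d, the ligand of plexin-B1, moved in opposite directions on the 2 lymph node lines by its probe 833252. The log2 difference from B16 was -1.51 on B16-RI, a bound because B16-RI did not detect the probe, and 1.05 on B16-RII, which did. With 1 array per line this difference between the lines was not tested, and both values share the B16 array. With the raised floor for undetected signals the B16-RI value was 0, so that a difference was left on B16-RII only. The other Sema4d probe, 693200, had differences of -0.63 and 0.24 on the same lines, detected throughout.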

How the results depend on the processing

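Of the 39 called differences none changed sign under the alternatives run on them. Taken each under 6 alternatives, 52 of their 234 values were no longer called. Those that depended on the scaling were of Efnb3, Sema4b, Sema6a, Ephb2, Ephb3, Ephb4 and Ephb6. On the deposited values, the members higher than B16 numbered 4 on B16-RI (2 in the report) and 6 on B16-RIIL (3), and 5 were higher on B16-RII than on B16-RI (3). With median scaling these counts were 4, 6 and 6, with 6 higher on B16-RII than on B16 (2) and 2 lower on B16-RIIL (4), the last also under quantile normalization. The median of the 15 members detected on every array was 0.29 on B16-RII against B16 with the deposited values and 0.14 with median scaling (-0.13 in the report), where that of all 11604 such probes was 0.415 and 0.395 (-0.012). On B16-RII against B16-RI it was 0.17 and 0.13 (-0.15), beside 0.193 and 0.247 (-0.017), and on B16-RIIL 0.52 and 0.53 (0.15), beside 0.224 and 0.251 (-0.037), all probes moving the same way.

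Detection on both arrays left 1 higher and 1 lower on B16-RI, 1 and 0 on B16-RII, 0 and 0 on B16-RIIL, 0 and 0 on B16-RII against B16-RI, and 1 and 0 on B16-RIIL against B16-RII. An S/N limit of 5 left 18, 16, 19 and 18 member probes detected on the 4 arrays (28, 18, 24 and 25), 1 and 5 called on B16-RI, 1 and 2 on B16-RII, 1 higher on B16-RIIL, 1 and 1 on B16-RII against B16-RI, and 1 and 1 on B16-RIIL against B16-RII. With neither limit nor floor, 8 were lower on B16-RII, 10 on B16-RIIL and 6 on B16-RII against B16-RI, and 8 higher on B16-RIIL against B16-RII. The floor at the 5th percentile, chosen after seeing the data, left 1 higher and 3 lower on B16-RI (1.54% and 1.98% of all probes), 1 and 1 on B16-RII (1.27% and 3.15%), 1 and 1 on B16-RIIL (1.56% and 2.82%), 1 and 2 on B16-RII against B16-RI (0.709% and 2.03%), and 1 and 2 on B16-RIIL against B16-RII (1.59% and 0.994%). With 1 probe per gene, 1 was higher on B16-RI, 1 on B16-RII, and 1 lower on B16-RII against B16-RI. The detection limits and floors change how many dim probes can be called. Over all probes, the share called in a comparison and direction ran from 3.27% to 6.51% on the deposited values, 3.24% to 6.86% with median scaling, 3.42% to 5.43% with quantile normalization, 0.887% to 3.81% of those detected on both arrays, 1.48% to 2.61% with the S/N limit of 5, 4.52% to 17.1% with neither limit nor floor, 0.709% to 3.15% with the raised floor and 2.99% to 5.1% with 1 probe per gene. No paired analysis was possible because 1 array per line matches a sample label, and the columns of second arrays, which match none, were not used. For the same reason no replicate could be left out.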

Other observations

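Other guidance families, the Slit, Robo, netrin, Unc5, Rgm and Flrt genes, were read in the same way. Of 22 listed, 21 were on the array, 12 were detected on at least 1 and 7 on all 4. Against B16, 0 were higher and 1 lower on B16-RI (3.63% and 5.1% of all genes), 1 higher and 0 lower on B16-RII (3.51% and 5.04%), and 1 higher and 0 lower on B16-RIIL (4.22% and 4.56%). Between the derived lines, 1 was higher and 0 lower on B16-RII than on B16-RI (3.15% and 3.34%), and 1 higher and 2 lower on B16-RIIL than on B16-RII (4.01% and 2.99%). Unc5d, a netrin receptor, was detected on B16-RII alone, with signals of 0.46 for B16, 0.448 for B16-RI, 1.43 for B16-RII and 0.495 for B16-RIIL, and was at least 3.1-fold over B16, 3.19-fold over B16-RI and 2.88-fold over B16-RIIL there. Dcc, the receptor through which netrin attracts axons, was detected on B16-RIIL alone, with 0.31, 0.648, 0.544 and 1.88 on B16, B16-RI, B16-RII and B16-RIIL, at least 6.06-fold over B16 and 3.46-fold over B16-RII. Flrt1, a membrane protein that binds Unc5 receptors, read 1.52 on B16 and 0.759 on B16-RI, which did not detect it, a call lost under each of the other 4 scalings (log2 -0.6 to -0.75). Flrt3, of the same family, was detected on B16 (1.1), B16-RI (1.56) and B16-RII (1.16) and not on B16-RIIL (0.557), at least 2.09-fold lower there than on B16-RII. With the raised floor for undetected signals, 0 of the 7 calls of these families were kept, with Dcc at 0.51 over B16 and Unc5d at 0.11 on the log2 scale.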
